A study of Homo sapiens with 18 samples.

Results

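The transcriptome of LX-2 cells given vesicles that contain NID1 was compared with that of LX-2 cells given control vesicles, over 6 libraries chosen by their labels. LX-2 is an established human hepatic stellate cell line, so all 6 libraries come from 1 line. The groups were EV-XP-NID1-LX-2, which received exosomes carrying the NID1 protein for 48 hours, and EV-XP-LX-2, which received control exosomes for the same time, with n = 3 libraries each. They are 6 of the 18 libraries of a study of colorectal cancer metastasis. The labels do not explain the letters XP or name the cells that released the vesicles, and LX-2 cells without vesicles were not analysed here. The libraries were made from poly(A) RNA, and levels are TPM, a transcript's share of all transcripts scaled to a fixed total, as deposited by the authors. A gene was tested if it reached 1 TPM in at least 3 of the 6 libraries, which kept 15802 of 31585 listed genes. It is called higher or lower with NID1 vesicles at a limma adjusted p under 0.05, and every log2 fold change is that of TPM plus 1, NID1 minus control. Values written with ± are means with SD over 3 libraries. Nothing in the labels tells whether the replicates are separate cultures, and p-values therefore measure the spread among these libraries alone, which could be technical. Below, control replicate 1, 2 or 3 is a library of EV-XP-LX-2 and NID1 replicate 1, 2 or 3 a library of EV-XP-NID1-LX-2.

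Hepatic stellate cells store vitamin A in the healthy liver and turn into collagen-producing, contractile myofibroblasts when the liver is injured or invaded by a tumour. Extracellular vesicles such as exosomes carry proteins, lipids and RNA between cells and can prepare an organ for metastasis. Nidogen 1, the product of NID1, is a glycoprotein of basement membranes, the sheets of laminin and collagen IV on which epithelium and endothelium rest, and it binds both of those partners. The comparison sets stellate cells given exosomes with NID1 beside cells given control exosomes. Other differences in vesicle content or dose were not measured here. An effect of NID1 itself cannot be told apart from them.

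Of the 15802 genes tested, 6687 (42.3%) were called, 2805 (17.8%) higher and 3882 (24.6%) lower with NID1 vesicles. The values of the 3 NID1 libraries did not overlap those of the 3 control libraries for 55.9% of genes, with the NID1 libraries above for 23.4% and below for 32.5%. By at least 1 on the log2 scale, 88 genes rose (0.557%) and 192 fell (1.22%). The median log2 fold change over all genes was -0.05, and it was 0.01 after quantile normalization or median-ratio scaling, under which 51.1% and 51.2% of called genes were higher, against 41.9% as reported. Without NID1 replicate 2 the count of higher genes was 3481 and that of lower genes 3651. Counts of gene lists below are to be read against these shares of all genes. Ranges over all alternatives include a filter at a mean of at least 5 TPM, under which fewer members of several lists were tested.

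Replicates correlated with r from 0.985 to 0.988 across genes on the log2 scale, and libraries of different groups with r from 0.971 to 0.975; genes are not independent replicates. NID1 replicate 2 stood apart: its median-ratio factor was 0.924, against 1.01 to 1.03 for the other libraries. The deviation of each gene from its mean over the 6 libraries correlated with GC content with a Spearman rho of -0.344 in NID1 replicate 2, -0.0495 and -0.156 in NID1 replicates 1 and 3, and 0.183 to 0.216 in the control libraries. The median log2 fold change ran from 0.06 in the fifth of genes with the lowest GC content to -0.17 in that with the highest. For many lists, counts or medians are therefore also given without NID1 replicate 2 and after removal of the trends on GC content and transcript length. That removal is an alternative added after the data were seen. Apart from NID1, HIST2H2AA4, COL1A1, CXCL8, CD81 and TSPAN6, every gene named below as having risen or fallen kept its call under all alternatives that tested it. Of the stellate lineage markers, 16 were tested, and the list summed to 2573 to 2739 TPM in the control libraries and 1837 to 2160 TPM in the NID1 libraries. Of its members 7 fell (4 without control replicate 1) and 2 rose (4 after removal of the GC and length trends). The colorectal epithelial list summed to 255 to 269 TPM in the control libraries and 206 to 239 TPM in the NID1 libraries, most of it from KRT18 and KRT8, and 4 of its 19 listed genes were tested. EPCAM, which defines that epithelium, was at a mean of 0.087 TPM with control and 0.107 TPM with NID1 vesicles. The leukocyte list summed to 103.5 to 110.1 TPM and 74.1 to 83.7 TPM, with 3 of 13 listed genes tested. Most of that sum was LCP1, an actin-bundling protein, at 58.3 ± 1.80 TPM with control and 58.5 ± 2.20 TPM with NID1 vesicles and not called, and CD68, a lysosomal protein of macrophages and other cells, which fell from 43.7 ± 1.99 to 18.6 ± 2.69 TPM. PTPRC, the pan-leukocyte marker, was at 0.037 and 0.003 TPM. The hepatocyte list summed to 21.0 to 22.8 TPM and 13.4 to 14.2 TPM, nearly all of it from the 1 of 9 listed genes that was tested, which was called lower, and ALB, albumin, was at 0.307 and 0.047 TPM. The part of such markers in the results below was not tested.

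**Figure D1:**
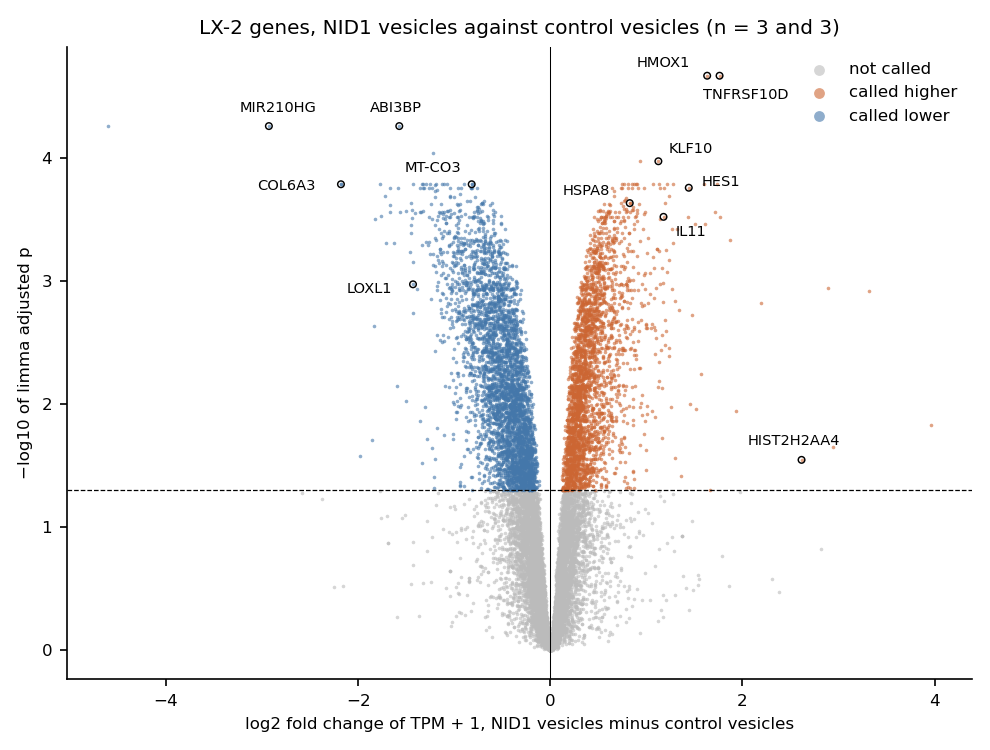
Each point is 1 of 15802 genes, with the log2 fold change of TPM plus 1 (NID1 minus control vesicles, n = 3 and 3) on the x axis and the negative log10 of the limma adjusted p on the y axis. The dashed line marks an adjusted p of 0.05, and 2805 called genes lie to the right of 0 and 3882 to the left.

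Transcripts of NID1 itself (ENSG00000116962), which the incoming vesicles carry as protein, did not rise in the recipient cells. They stood at 25.1, 25.1 and 26.0 TPM with control vesicles and 21.7, 18.02 and 22.6 TPM with NID1 vesicles. All 3 NID1 libraries lie below the control libraries, with NID1 replicate 2 the lowest. The difference (log2 fold change -0.28, SE 0.09, adjusted p = 0.0372) lost its call without control replicate 1, 2 or 3 (adjusted p = 0.0895, 0.084 and 0.105) and without NID1 replicate 1 (0.0532), and the adjusted p ran from 0.0206 to 0.105 over the alternatives. In all, NID1 kept its call under 10 of 16 alternatives. NID2, its close relative in basement membranes, fell from 13.9 ± 1.42 to 7.23 ± 0.798 TPM.

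The largest rises among genes of the naming rule, which takes the 15 largest in each direction, came from several functional groups. The largest was that of the histone gene HIST2H2AA4, from 4.58 ± 4.07 to 23.7 ± 6.32 TPM (log2 fold change 2.62, SE 0.76, limma adjusted p = 0.0283). It kept its call under 12 of 16 alternatives. TNFRSF10D, a decoy receptor that binds the death ligand TRAIL without passing on a death signal, was at 21.1, 22.3 and 21.8 TPM with control vesicles and 76.3, 73.4 and 78.6 TPM with NID1 vesicles. The groups are far apart and each is tight (log2 fold change 1.76, SE 0.05, adjusted p = 2.14e-05). HES1, a repressor transcription factor induced by Notch, rose from 6.003 ± 0.340 to 18.1 ± 1.69 TPM. KLF5, a zinc finger transcription factor, rose from 10.7 ± 0.977 to 26.7 ± 1.30 TPM. SLC1A3, a glutamate transporter, rose from 4.29 ± 0.518 to 11.2 ± 1.50 TPM. The rule takes only genes whose NID1 and control values do not overlap. The separation in these genes was therefore fixed by the choice. IL11, a cytokine of the IL-6 family made by fibroblasts, rose from 91.2 ± 6.84 to 208 ± 24.6 TPM. Among the largest falls were matrix genes taken up below and CCDC80, a secreted matrix-associated protein, which fell from 19.4 ± 3.15 to 5.38 ± 0.594 TPM. PSG1, of the pregnancy glycoprotein family, fell from 8.19 ± 1.74 to 1.94 ± 0.274 TPM, and the near-identical copies of that family make the value uncertain. DEPP1, a gene induced by FOXO factors, fell from 5.73 ± 1.07 to 1.05 ± 0.318 TPM. ABI3BP, a secreted protein of the matrix, was at 213, 222 and 219.7 TPM with control vesicles and 77.1, 67.3 and 74.4 TPM with NID1 vesicles, the NID1 libraries at about the same low level (log2 fold change -1.57, SE 0.06, adjusted p = 5.49e-05).

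**Figure D2:**
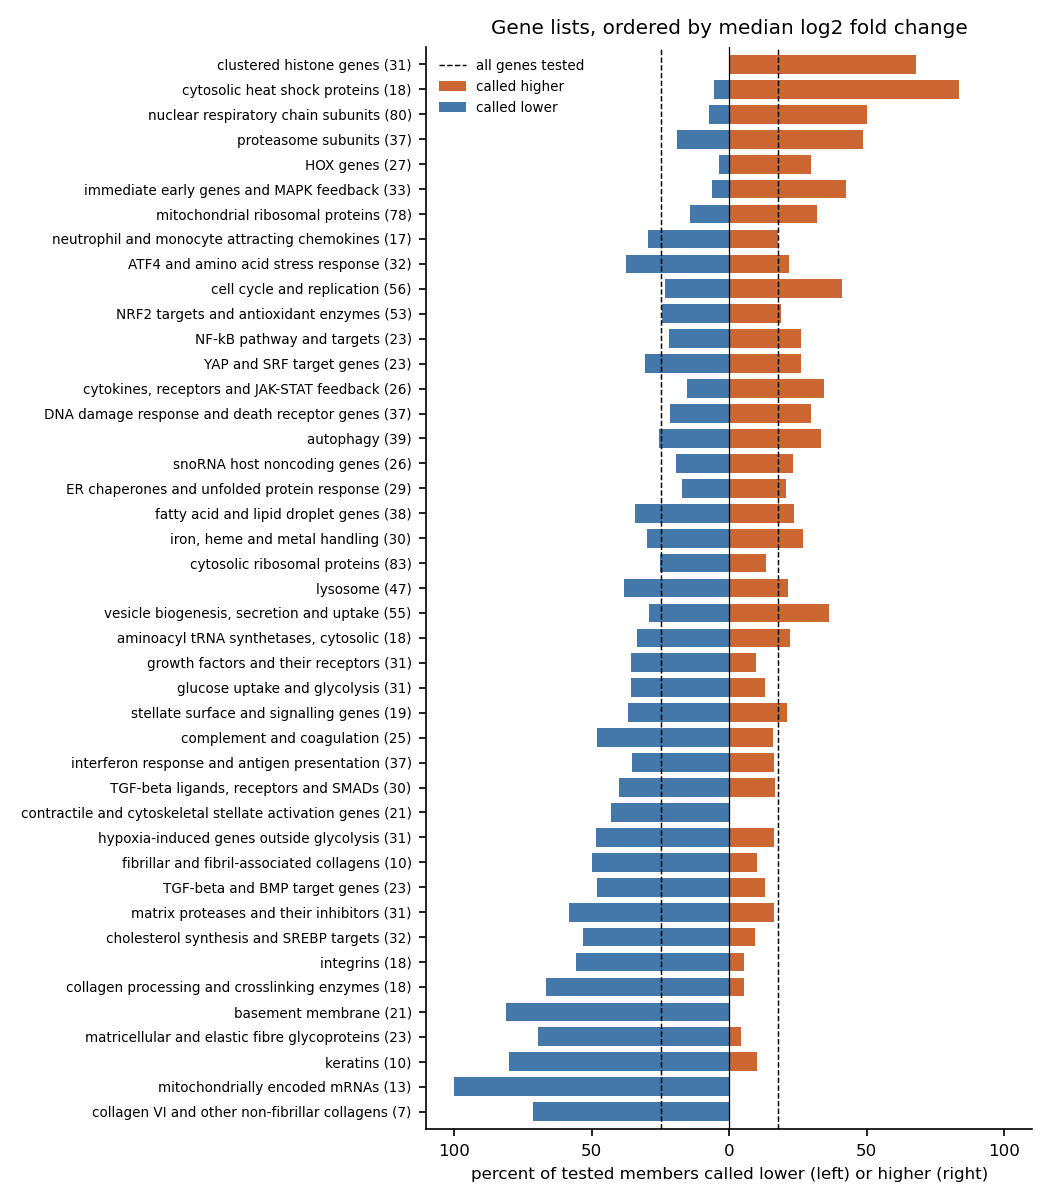
Bars give the percentage of tested members of each gene list (number tested in parentheses) that were called lower (left) or higher (right) with NID1 vesicles, ordered by the list's median log2 fold change. Dashed lines mark the shares among all genes, 24.6% lower and 17.8% higher. Histones, heat shock proteins and nuclear respiratory chain subunits stand at the higher end. Non-fibrillar collagens, mitochondrially encoded mRNAs and keratins stand at the lower end, followed by matricellular and basement membrane genes.

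Genes of the extracellular matrix fell across most of its parts. In these bulk libraries fewer cells of a kind and less RNA per cell cannot be told apart. Of 10 fibrillar and fibril-associated collagens tested, 5 fell and 1 rose, with a median log2 fold change of -0.25 (3 fell without control replicate 1). The counts of 5 and 1 held without NID1 replicate 2 (median -0.20) and after removal of the GC and length trends (median -0.16). COL3A1, the chain of collagen III that is deposited early in liver fibrosis, was at 27.4, 24.8 and 29.7 TPM with control vesicles and 14.2, 11.4 and 15.6 TPM with NID1 vesicles. Each NID1 library had less of it than any control library (log2 fold change -0.95, SE 0.12, adjusted p = 0.00117). COL5A1 and COL5A2, chains of the collagen V that starts fibril assembly, both fell, COL5A2 from 119 ± 3.29 to 71.2 ± 6.11 TPM. COL1A1, the main collagen of scar tissue, stood at 205, 198 and 206 TPM with control vesicles and 180.3, 139 and 165 TPM with NID1 vesicles. Its groups do not overlap, but the difference (log2 fold change -0.34, SE 0.09, adjusted p = 0.0212) was not called without control replicate 1 or 3 (adjusted p = 0.0624 and 0.0609), over a range of 0.00441 to 0.064 in all alternatives. In all, COL1A1 kept its call under 13 of 16 alternatives. The partner chain COL1A2 was at 13.2, 12.4 and 13.4 TPM with control vesicles and 12.3, 9.07 and 12.1 TPM with NID1 vesicles and was not called (log2 fold change -0.22, SE 0.12, adjusted p = 0.177). The single rise was COL11A2, a minor fibrillar chain known from cartilage, from 2.05 ± 0.234 to 6.37 ± 0.578 TPM. Summed over the list, the fibrillar collagens came to 548 ± 10.8 TPM with control and 408 ± 44.9 TPM with NID1 vesicles (SD, n = 3).

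Of 7 collagen VI and other non-fibrillar collagens, 5 fell and none rose, with a median of -0.78 (1 rose without NID1 replicate 2, after either scaling or after removal of the GC and length trends). The 3 chains of collagen VI, which forms beaded filaments near basement membranes, fell by unequal amounts. COL6A3 was at 14.2, 11.7 and 12.6 TPM with control vesicles and 2.43, 1.66 and 2.09 TPM with NID1 vesicles. It is among the largest falls of all genes (log2 fold change -2.18, SE 0.12, adjusted p = 0.000163). COL6A2 fell from 112 ± 2.3 to 56.3 ± 7.14 TPM and COL6A1 from 61.1 ± 3.75 to 42.1 ± 5.21 TPM. COL13A1 and COL17A1, transmembrane collagens, fell from low levels, COL17A1 from 1.61 ± 0.254 to 0.430 ± 0.0781 TPM.

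Of 21 basement membrane genes tested, 17 (81.0%) fell and none rose, beside 24.6% and 17.8% of all genes, with a median of -0.55. The count of lower members was 13 to 18 over all alternatives. It was 17 without NID1 replicate 2 (median -0.43) and 16 after removal of the GC and length trends (median -0.40). Without control replicate 1, 1 member rose. COL18A1, whose cleaved end is endostatin, was at 42.6, 39.4 and 39.6 TPM with control vesicles and 18.1, 14.1 and 18.1 TPM with NID1 vesicles. The NID1 libraries lie well below (log2 fold change -1.23, SE 0.10, adjusted p = 0.000313). COL4A1, a chain of the collagen IV network, was at 64.6, 67.9 and 70.7 TPM with control vesicles and 44.8, 43.8 and 44.5 TPM with NID1 vesicles, with NID1 libraries that hardly differ from each other (log2 fold change -0.60, SE 0.05, adjusted p = 0.000339). LAMC1, the laminin chain to which nidogen binds, was at 148, 142 and 139.7 TPM with control vesicles and 90.8, 76.8 and 91.2 TPM with NID1 vesicles. It too shows no overlap, with NID1 replicate 2 lowest (log2 fold change -0.73, SE 0.07, adjusted p = 0.000569). SPARC, a collagen-binding matricellular protein, fell from 489.8 ± 5.80 to 291 ± 25.2 TPM. The list summed to 1612 ± 5.34 TPM with control and 1100.4 ± 103 TPM with NID1 vesicles.

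Of 23 matricellular and elastic fibre glycoproteins, 16 (69.6%) fell and 1 rose, with a median of -0.57, and 14 to 17 fell over all alternatives (2 rose after removal of the GC and length trends). The 14 are of 17 members tested at a mean of at least 5 TPM. TGFBI, a TGF-beta induced adhesion protein, was at 823, 774 and 785 TPM with control vesicles and 406, 346 and 404 TPM with NID1 vesicles. No NID1 library came near the control values (log2 fold change -1.04, SE 0.07, adjusted p = 0.000208). THBS2, a thrombospondin of fibrotic tissue, fell from 168 ± 5.16 to 81.2 ± 9.35 TPM. TNC, tenascin C of wounds and tumour stroma, fell from 50.9 ± 2.86 to 25.9 ± 1.80 TPM. FBLN2, a fibulin that binds nidogen and fibronectin, fell from 17.0 ± 1.55 to 5.01 ± 0.437 TPM. FN1, fibronectin, showed a smaller fall, from 486 ± 16.2 to 343 ± 35.4 TPM. LTBP1, which stores latent TGF-beta in the matrix, fell from 30.8 ± 0.979 to 15.2 ± 1.06 TPM. The member that rose was THBS1, thrombospondin 1, an activator of latent TGF-beta, from 38.1 ± 2.57 to 51.0 ± 4.64 TPM; it lies outside the naming rule and was picked out after its values were seen.

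Enzymes that process and crosslink collagen fell as well: 12 of 18 (66.7%) fell and 1 rose, with a median of -0.52, and 13 fell and 3 rose after removal of the GC and length trends, with a median of -0.34 (2 rose without NID1 replicate 2). LOXL2, a lysyl oxidase that crosslinks collagen, was at 447, 437 and 447 TPM with control vesicles and 249, 201 and 239.9 TPM with NID1 vesicles. The groups are apart and NID1 replicate 2 is lowest (log2 fold change -0.95, SE 0.08, adjusted p = 0.000319). LOXL1 fell from 25.6 ± 1.28 to 9.09 ± 2.61 TPM and LOX from 199 ± 2.02 to 118 ± 11.8 TPM. PCOLCE, which speeds removal of the procollagen tail, fell from 54.3 ± 0.484 to 27.2 ± 3.45 TPM. P4HA1, a catalytic subunit of the prolyl hydroxylase that stabilises the collagen helix, fell from 43.8 ± 0.873 to 26.4 ± 0.421 TPM, while its partner P4HB was at 396 ± 9.94 TPM with control and 349.9 ± 29.5 TPM with NID1 vesicles and was not called. SERPINH1, the collagen chaperone HSP47, was the one member that rose, from 93.7 ± 5.48 to 127 ± 10.6 TPM; it was likewise picked out after its values were seen.

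Of 31 matrix proteases and inhibitors, 18 (58.1%) fell and 5 rose, with a median of -0.27. The count of rises was 2 without control replicate 1 or NID1 replicate 1 or 3, and 3 without control replicate 2 or 3, but 8 after removal of the GC and length trends. The interstitial collagenase MMP1 rose from 1162 ± 28.7 to 1393 ± 77.2 TPM, and the stromelysin MMP3, which can activate it, from 7.82 ± 0.869 to 15.4 ± 0.761 TPM. The gelatinase MMP2 fell from 129 ± 10.8 to 73.6 ± 9.27 TPM. PLAT, the tissue activator of plasminogen, fell from 145 ± 9.04 to 63.5 ± 5.38 TPM. The metalloprotease inhibitor TIMP1 fell from 560.1 ± 12.8 to 481 ± 13.6 TPM and TIMP2 from 211 ± 6.82 to 131 ± 12.8 TPM.

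**Figure D3:**
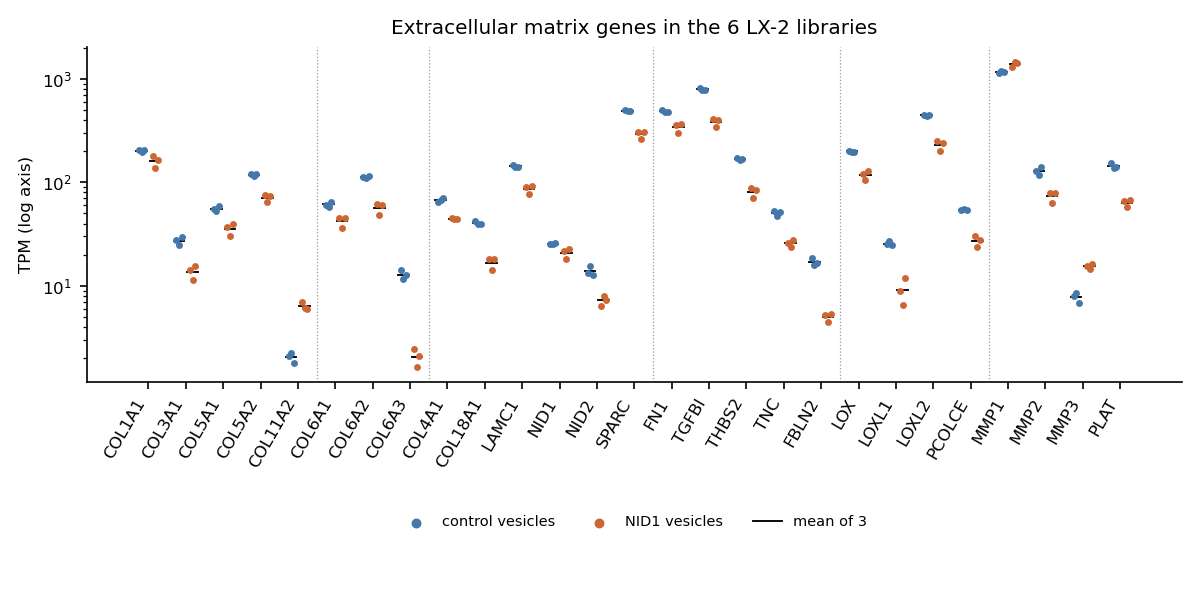
Points are TPM of matrix genes in single libraries on a log axis, blue for control and orange for NID1 vesicles, with a line at the mean of 3, grouped from left to right as fibrillar collagens, collagen VI, basement membrane, matricellular glycoproteins, crosslinking enzymes and proteases. COL6A3 has the widest gap among the genes that fell, and COL11A2, MMP1 and MMP3 lie above their controls.

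Of 18 integrins, the receptors through which cells hold the matrix, 10 (55.6%) fell and 1 rose, with a median of -0.39, and 7 to 13 fell over the alternatives (2 rose after removal of the GC and length trends). ITGA3, a laminin receptor chain, was at 233, 227 and 234 TPM with control vesicles and 146, 115 and 145 TPM with NID1 vesicles. No NID1 library reached the control values (log2 fold change -0.78, SE 0.09, adjusted p = 0.00097). ITGB1, the shared beta chain, fell from 671 ± 8.96 to 528 ± 26.0 TPM, and ITGA5, of the fibronectin receptor, from 165 ± 6.34 to 109.8 ± 11.6 TPM. ITGAE, a partner of beta 7, rose from 82.9 ± 2.32 to 124 ± 17.1 TPM and was picked out after its values were seen.

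The contractile programme of activated stellate cells did not move as one. Of 21 contractile and cytoskeletal genes, 9 (42.9%) fell and none rose, with a median of -0.20. After median-ratio scaling 3 rose. Without NID1 replicate 2, 2 rose and the median was -0.09, and after removal of the GC and length trends 3 rose and 7 fell with a median of -0.04. ACTA2, alpha smooth muscle actin and the usual mark of activation, was at 13.8, 14.1 and 14.2 TPM with control vesicles and 13.8, 10.3 and 12.4 TPM with NID1 vesicles. The groups overlap and the gene was not called (log2 fold change -0.20, SE 0.10, adjusted p = 0.171). TAGLN, a smooth muscle actin-binding protein, was at 286 ± 4.99 TPM with control and 299.96 ± 20.4 TPM with NID1 vesicles and was not called (log2 fold change 0.06, SE 0.06, adjusted p = 0.392). PDLIM7, an actin-associated scaffold, was at 168, 161 and 162 TPM with control vesicles and 79.5, 61.0 and 79.2 TPM with NID1 vesicles, with no overlap (log2 fold change -1.16, SE 0.10, adjusted p = 0.000377). CALD1, caldesmon, fell from 84.7 ± 2.72 to 52.8 ± 4.67 TPM, and the intermediate filament VIM from 1887 ± 80.8 to 1341 ± 127 TPM. Among 19 surface and signalling genes of stellate cells, 7 fell and 4 rose, with a median of -0.14. The count of falls was 3 without control replicate 1. The median was -0.07 without NID1 replicate 2 and after quantile normalization, under which 7 rose, and after removal of the GC and length trends 7 fell and 7 rose with a median of -0.04, so no direction is read from the list. The PDGF receptor PDGFRB fell from 10.8 ± 0.738 to 6.15 ± 0.0400 TPM, whereas NGFR, the neurotrophin receptor p75 of stellate cells, rose from 4.61 ± 0.408 to 9.69 ± 0.193 TPM. GATA6, a transcription factor found in quiescent stellate cells, rose from 3.01 ± 0.642 to 7.52 ± 0.678 TPM.

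TGF-beta drives stellate activation, its ligands binding a receptor pair that phosphorylates SMAD proteins. Of 30 ligands, receptors, SMADs and extracellular regulators, 12 (40.0%) fell and 5 rose, with a median of -0.19 (3 rose without control replicate 1 or 3 or NID1 replicate 1). The median was -0.11 after quantile normalization and -0.10 after removal of the GC and length trends. TGFB1, listed under a clone name and matched by its ID, was at 50.1 ± 1.32 TPM with control and 41.6 ± 7.35 TPM with NID1 vesicles and was not called. TGFB2 fell from 41.5 ± 1.76 to 29.1 ± 1.63 TPM. TGFBR2, the type II receptor, was at 45.8, 47.7 and 45.2 TPM with control vesicles and 46.8, 41.3 and 47.0 TPM with NID1 vesicles, with overlapping groups (log2 fold change -0.04, SE 0.06, adjusted p = 0.653). The ubiquitin ligase SMURF2, which removes SMADs and receptors, fell from 62.8 ± 2.77 to 41.5 ± 2.12 TPM. The activin antagonists went separate ways: FST rose from 23.5 ± 2.22 to 40.9 ± 3.07 TPM, and FSTL3 fell from 63.6 ± 1.34 to 36.5 ± 4.32 TPM. Of 23 genes known as TGF-beta or BMP targets, 11 (47.8%) fell and 3 rose, with a median of -0.26 (5 rose without NID1 replicate 2 or after median-ratio scaling, and 5 after removal of the GC and length trends, with a median of -0.12). ID1, a BMP target, fell from 78.6 ± 5.67 to 43.8 ± 7.33 TPM, and CCN2, connective tissue growth factor, from 219.9 ± 7.89 to 159 ± 14.8 TPM. KLF10, a TGF-beta inducible transcription factor, went up instead, from 115 ± 5.71 to 251 ± 6.61 TPM. The YAP and SRF target list was split, with 6 of 23 higher and 7 lower and a median of 0.02 (3 higher without NID1 replicate 3). CCN1, a widely used YAP target, was at 978 ± 40.5 TPM with control and 967 ± 71.5 TPM with NID1 vesicles and was not called. ANKRD1, another, fell from 159 ± 4.35 to 116 ± 5.64 TPM. CCN2, whose fall is given above, is also on the YAP and SRF list.

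Inflammatory genes were divided between rises, falls and genes without a call. Of 17 chemokines and colony-stimulating factors, 5 fell and 3 rose, with a median of 0.03 (1 rose without NID1 replicate 2). CXCL8, a neutrophil attractant, was at 2832, 3736 and 3680.2 TPM with control vesicles and 4433, 4890.3 and 4269.6 TPM with NID1 vesicles. The groups do not overlap, although control replicate 1 lies well below the other controls. The difference (log2 fold change 0.42, SE 0.11, adjusted p = 0.0225) lost its call without NID1 replicate 2 (adjusted p = 0.0626), and the adjusted p ran from 0.00915 to 0.0924 over the alternatives. In all, CXCL8 kept its call under 13 of 16 alternatives. CXCL1 was at 204 ± 15.7 TPM with control and 211 ± 13.9 TPM with NID1 vesicles and was not called, but the related CXCL2 fell from 172 ± 15.01 to 120.3 ± 11.2 TPM. CCL2, which attracts monocytes, was at 43.2, 46.9 and 43.0 TPM with control vesicles and 19.96, 19.4 and 20.8 TPM with NID1 vesicles, with clear separation (log2 fold change -1.11, SE 0.06, adjusted p = 0.000163). CXCL12, the ligand of CXCR4, fell from 45.9 ± 1.76 to 29.6 ± 2.68 TPM, and CSF1, the macrophage growth factor, rose from 34.1 ± 0.475 to 58.9 ± 4.41 TPM. Of 26 cytokines, cytokine receptors and JAK-STAT feedback genes, 9 rose and 4 fell, with a median of 0.02; 4 rose without control replicate 1 and 5 without control replicate 3. IL6 was at 363, 397 and 365 TPM with control vesicles and 389.9, 362 and 393 TPM with NID1 vesicles. Its groups overlap and it was not called (log2 fold change 0.03, SE 0.05, adjusted p = 0.74), unlike IL11 above. IL1B fell from 1126 ± 21.4 to 786 ± 16.0 TPM, and OSMR, the oncostatin M receptor, from 173 ± 3.94 to 128 ± 7.43 TPM.

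Of 23 NF-kB pathway genes, 6 rose and 5 fell, with a median of 0.02; 3 rose without control replicate 1 or NID1 replicate 1, and 12 after removal of the GC and length trends. The inhibitor NFKBIB rose from 42.2 ± 3.15 to 79.7 ± 5.72 TPM, while NFKBIA, the feedback inhibitor induced by NF-kB, was at 248 ± 10.8 TPM with control and 231 ± 14.8 TPM with NID1 vesicles and was not called. TNIP1, a brake on the pathway, fell from 155 ± 4.03 to 89.9 ± 9.58 TPM. Of 37 interferon response and antigen presentation genes, 13 (35.1%) fell and 6 rose, with a median of -0.18; 6 fell without control replicate 1 and 8 without control replicate 3 or NID1 replicate 3. The median was -0.11 after quantile normalization and -0.07 after removal of the GC and length trends. ISG20, an interferon-induced exonuclease, fell from 14.4 ± 0.322 to 4.24 ± 0.811 TPM, and IFI35 from 15.5 ± 1.69 to 7.09 ± 1.49 TPM. ISG15, a ubiquitin-like protein among the most strongly interferon-induced, was at 42.7 ± 4.17 TPM with control and 38.6 ± 3.73 TPM with NID1 vesicles and was not called. IRF1, a transcription factor of the response, rose from 81.1 ± 2.03 to 114 ± 7.43 TPM. Several complement genes fell: 12 of 25 complement and coagulation genes (48.0%) were lower, beside 24.6% of all genes, and 4 higher, with a median of -0.16 and 10 to 12 lower over all alternatives (7 higher after removal of the GC and length trends). The median was -0.10 after median-ratio scaling. C1R, a protease that starts the classical pathway, was at 107, 99.5 and 134 TPM with control vesicles and 38.7, 36.9 and 42.3 TPM with NID1 vesicles. Control replicate 3 is the highest, and all NID1 libraries are far below (log2 fold change -1.50, SE 0.11, adjusted p = 0.000267). Its partner protease C1S fell from 18.9 ± 2.01 to 7.27 ± 0.646 TPM, and CFB, factor B of the alternative pathway, from 21.6 ± 3.74 to 7.28 ± 0.232 TPM.

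Chaperones rose together. The list holds heat shock proteins, co-chaperones and their regulator HSF1, and 18 of its 22 genes were tested. Of these, 15 (83.3%) were higher and 1 was lower, with a median log2 fold change of 0.54. Over all alternatives 14 to 17 rose, 16 without NID1 replicate 2 and 17 after removal of the GC and length trends. Heat shock genes are switched on by HSF1, which binds repeats of the letters GAA, head to head, near the start of its targets. The windows from 250 bases before to 50 bases after the annotated starts of HSPA8 and HSP90AA1, abundant members of the list, and of CHORDC1, a chaperone-binding gene outside the list that is among the 15 largest rises, are shown because each holds the pattern GAANNTTCNNGAA. They are RefSeq sequences of GRCh38.p14, read 5′ to 3′ on the minus strand of the genome at chr11:123062087-123062386, chr14:102086995-102087294 and chr11:90223000-90223299. Capitals mark matches on either strand.
HSPA8: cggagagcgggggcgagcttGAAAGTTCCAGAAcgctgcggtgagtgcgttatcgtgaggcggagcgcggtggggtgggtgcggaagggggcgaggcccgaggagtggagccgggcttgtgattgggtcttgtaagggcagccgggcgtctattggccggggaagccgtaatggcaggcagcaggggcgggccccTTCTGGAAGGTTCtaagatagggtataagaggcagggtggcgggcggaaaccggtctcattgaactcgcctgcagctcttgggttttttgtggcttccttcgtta
HSP90AA1: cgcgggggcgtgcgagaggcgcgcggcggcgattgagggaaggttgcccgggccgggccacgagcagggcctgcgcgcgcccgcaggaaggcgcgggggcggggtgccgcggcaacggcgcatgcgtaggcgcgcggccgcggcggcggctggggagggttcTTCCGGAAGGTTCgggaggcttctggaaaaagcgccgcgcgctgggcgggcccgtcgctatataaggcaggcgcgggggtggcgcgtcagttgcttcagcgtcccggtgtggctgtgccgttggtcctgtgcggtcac
CHORDC1: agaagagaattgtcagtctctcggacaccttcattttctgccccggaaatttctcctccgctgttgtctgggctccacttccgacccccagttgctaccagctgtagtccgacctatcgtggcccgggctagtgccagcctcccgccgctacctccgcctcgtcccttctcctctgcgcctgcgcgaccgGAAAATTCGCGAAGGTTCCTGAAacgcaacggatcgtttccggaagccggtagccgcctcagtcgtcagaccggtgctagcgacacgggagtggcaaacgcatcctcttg
HSPA8 has 2 matches, beginning 230 and 55 bases before the start, HSP90AA1 has 1, beginning 88 bases before it, and CHORDC1 has 3 that overlap. Of 16 members of the list with a window, 6 (37.5%) held the pattern, against 0.447% of the 10295 tested genes with one. The shorter pattern GAANNTTC was in 9 of 16 (56.3%) and in 6.66% of the same background. A match is a description of letters and not a binding site.

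HSPA8, the constitutive HSP70 of the cytosol, was at 695, 731 and 741 TPM with control vesicles and 1227, 1375 and 1248 TPM with NID1 vesicles. The lowest NID1 library exceeded the highest control library by far (log2 fold change 0.83, SE 0.06, adjusted p = 0.000232). HSP90AA1, the inducible HSP90, was at 388, 413 and 415 TPM with control vesicles and 708, 831 and 714 TPM with NID1 vesicles. Here NID1 replicate 2 is the highest, and the other NID1 libraries also stand clear of the controls (log2 fold change 0.88, SE 0.07, adjusted p = 0.000299). DNAJA1, a J-domain partner of HSP70, was at 123, 129 and 128 TPM with control vesicles and 237, 247 and 231 TPM with NID1 vesicles, with a narrow spread in both groups (log2 fold change 0.91, SE 0.04, adjusted p = 0.000163). CHORDC1 was at 82.9, 85.0 and 88.9 TPM with control vesicles and 192, 218 and 190.2 TPM with NID1 vesicles, again with NID1 replicate 2 the highest (log2 fold change 1.21, SE 0.06, adjusted p = 0.000163). HSPH1, which recharges HSP70, rose from 151 ± 5.05 to 240.0 ± 5.002 TPM, STIP1, which links HSP70 to HSP90, from 302 ± 6.76 to 479 ± 13.95 TPM, and the small heat shock protein HSPB8 from 6.31 ± 0.690 to 13.8 ± 0.703 TPM. The member that fell was the regulator HSF1, from 60.3 ± 2.93 to 45.2 ± 4.36 TPM; it was picked out after its values were seen. Summed, the list came to 4369 ± 88.1 TPM with control and 6548 ± 225 TPM with NID1 vesicles (SD, n = 3). Chaperones of the endoplasmic reticulum did not follow: of 29 such genes and genes of the unfolded protein response, 6 rose and 5 fell, with a median of -0.02 (3 fell without control replicate 1 and 2 without control replicate 2, and 8 after quantile normalization). HSPA5, the reticulum's HSP70, was at 247 ± 5.96 TPM with control and 272 ± 14.7 TPM with NID1 vesicles and was not called, PDIA4 fell from 101 ± 3.80 to 62.3 ± 3.65 TPM, and XBP1, a transcription factor of the response, rose from 139.9 ± 2.91 to 191 ± 1.05 TPM.

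Oxidative stress genes did not move as a list. HMOX1, heme oxygenase 1 and a target of NRF2, was at 38.2, 39.0 and 39.7 TPM with control vesicles and 122, 119 and 128 TPM with NID1 vesicles. The groups are widely separated (log2 fold change 1.63, SE 0.05, adjusted p = 2.14e-05). Yet of 53 NRF2 targets and antioxidant enzymes, 10 (18.9%) rose and 13 (24.5%) fell, with a median of 0.02, shares near those of all genes. Rises came to 18 without NID1 replicate 2 and 19 after median-ratio scaling, and falls to 7 without control replicate 1 or 3 and 8 without control replicate 2 or NID1 replicate 3. NQO1, the quinone reductase often read as the standard NRF2 target, was at 161, 166 and 159.7 TPM with control vesicles and 157, 162 and 174 TPM with NID1 vesicles. Its groups overlap and it was not called (log2 fold change 0.02, SE 0.05, adjusted p = 0.79). CAT, catalase, fell from 11.5 ± 0.177 to 5.41 ± 0.680 TPM, and the mitochondrial superoxide dismutase SOD2 from 271 ± 13.2 to 199.6 ± 13.4 TPM. SQSTM1, the autophagy receptor p62, rose from 615 ± 17.8 to 1097 ± 70.7 TPM, and BLVRB, which reduces biliverdin, the product of heme breakdown, from 77.6 ± 4.16 to 113 ± 5.11 TPM. The NRF2 pattern TGACNNNGC was in 23.3% of 43 list members with a window and in 19.2% of the tested background. Its share varied among other lists, with 0 of 16 members for complement and coagulation and 11 of 25 (44.0%) for ATF4 genes. Of 30 iron, heme and metal genes, 8 rose and 9 fell, with a median of -0.03 (5 rose without control replicate 1 or 2, and 5 fell without control replicate 1). TFRC, the transferrin receptor, rose from 99.7 ± 3.79 to 148 ± 3.56 TPM, and SLC39A8, a zinc and iron importer, from 9.98 ± 0.625 to 23.1 ± 0.479 TPM. STEAP3, a ferrireductase, fell from 23.6 ± 1.38 to 10.9 ± 1.27 TPM, and PPOX, of heme synthesis, from 22.4 ± 1.66 to 9.85 ± 1.61 TPM. FTH1, ferritin heavy chain, was at 7004 ± 203 TPM with control and 6873 ± 567 TPM with NID1 vesicles and was not called.

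The integrated stress response raises ATF4, whose targets supply amino acids and, with prolonged stress, favour death. ATF4 was at 461, 460.2 and 457 TPM with control vesicles and 632, 623 and 630.5 TPM with NID1 vesicles. Each group varies little and they do not overlap (log2 fold change 0.45, SE 0.04, adjusted p = 0.0003). Among 32 genes of the list, 7 rose and 12 fell, with a median of 0.03; 14 rose without NID1 replicate 2, and 13 after median-ratio scaling or removal of the GC and length trends. SLC3A2, the heavy chain of amino acid exchangers, rose from 627 ± 14.4 to 1046 ± 33.2 TPM, and PPP1R15A, the feedback phosphatase subunit GADD34, from 643 ± 32.4 to 1023 ± 60.2 TPM. ATF3, a related stress-induced factor, rose from 100.3 ± 4.90 to 158 ± 9.05 TPM. DDIT3, the death-linked factor CHOP, went the other way, at 147, 141 and 144 TPM with control vesicles and 98.3, 104 and 99.9 TPM with NID1 vesicles (log2 fold change -0.51, SE 0.04, adjusted p = 0.00034). TRIB3, a CHOP target, fell from 112 ± 4.56 to 69.8 ± 7.83 TPM and was picked out after its values were seen, and DDIT4, an inhibitor of mTORC1, fell from 86.0 ± 5.40 to 43.8 ± 4.92 TPM.

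The list of DNA damage response and death receptor genes was also split, with 11 of 37 higher (29.7%) and 8 lower and a median of 0.01. Unlike the decoy TNFRSF10D above, the signalling TRAIL receptors TNFRSF10A and TNFRSF10B were not called. TNFRSF10B stood at 188, 196 and 187 TPM with control vesicles and 197, 175 and 192 TPM with NID1 vesicles. Its groups overlap (log2 fold change -0.02, SE 0.06, adjusted p = 0.761). GADD45A, a stress sensor, rose from 782 ± 29.3 to 1032 ± 65.8 TPM and the survival gene BCL2 from 3.78 ± 0.270 to 7.29 ± 0.498 TPM. Of 33 immediate early genes and MAPK feedback genes, 14 (42.4%) rose, beside 17.8% of all genes, and 2 fell, with a median of 0.12. The count was 9 without control replicate 1 or 3 or NID1 replicate 1. The median was 0.18 after median-ratio scaling, 0.20 without NID1 replicate 2 and 0.26 after removal of the GC and length trends. FOSB rose from 3.13 ± 0.141 to 5.81 ± 0.471 TPM, and ZFP36, which destabilises cytokine mRNAs, from 7.41 ± 0.725 to 11.9 ± 1.39 TPM. JUN was at 267 ± 12.98 TPM with control and 268 ± 25.0 TPM with NID1 vesicles and was not called. The falls were EGR1, from 87.5 ± 4.75 to 67.0 ± 5.88 TPM, and MYC, from 114 ± 6.97 to 91.3 ± 6.497 TPM, the latter picked out after its values were seen. Of 31 growth factors and receptors, 11 fell and 3 rose, with a median of -0.11; 5 fell without control replicate 1, 6 without control replicate 2, and 7 rose without NID1 replicate 2 or after median-ratio scaling, and 5 after quantile normalization or removal of the GC and length trends. The median was -0.06 after quantile normalization and -0.05 after median-ratio scaling. HBEGF, an EGF receptor ligand, rose from 62.5 ± 2.13 to 77.9 ± 5.79 TPM, and IGF1R fell from 24.3 ± 1.76 to 16.8 ± 2.06 TPM.

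**Figure D4:**
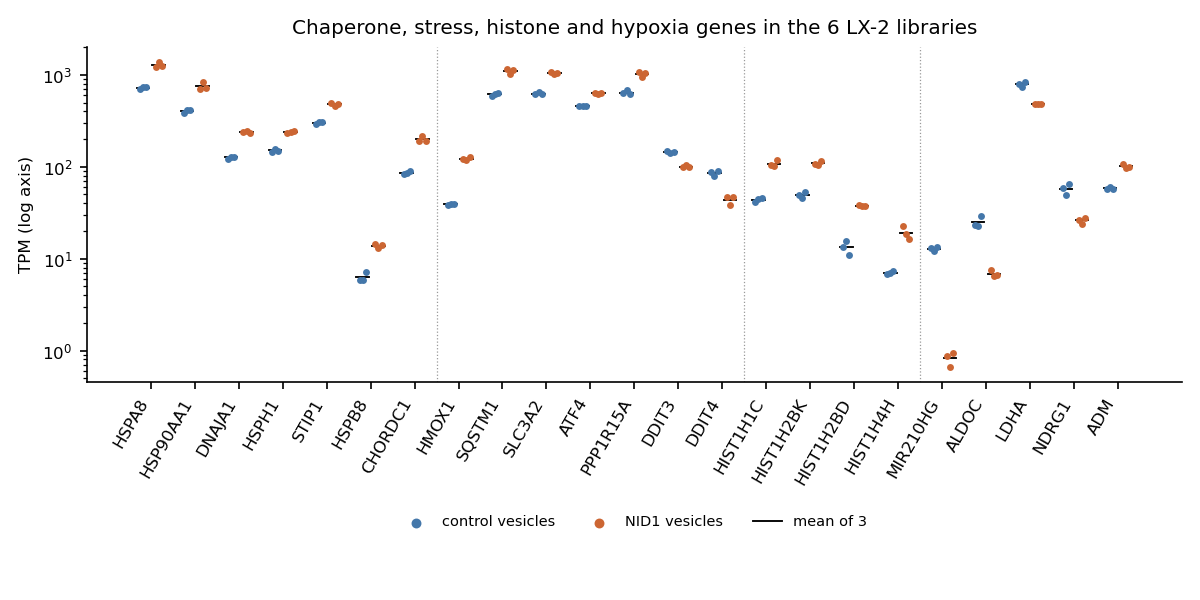
Points are TPM in single libraries on a log axis, blue for control and orange for NID1 vesicles, with a line at the mean of 3, for chaperones, stress genes, histones and hypoxia genes from left to right. The groups of every gene shown are apart, and DDIT3, DDIT4, MIR210HG, ALDOC, LDHA and NDRG1 are the genes that fell.

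Transcripts of the clustered histone genes rose: 21 of 31 tested (67.7%) were higher and none was lower, with a median of 0.80 and 12 to 23 higher over all alternatives. Without NID1 replicate 2, 17 were higher (median 0.86), and 23 after removal of the GC and length trends (median 0.80). Most mRNAs of these genes end in a stem loop and lack a poly(A) tail, so libraries of poly(A) RNA hold only their polyadenylated forms. HIST1H1C, a linker histone, was at 41.6, 44.4 and 46.1 TPM with control vesicles and 105.2, 103 and 117 TPM with NID1 vesicles. The NID1 libraries lie well above (log2 fold change 1.28, SE 0.07, adjusted p = 0.000163). HIST1H2BK was at 49.7, 45.5 and 52.7 TPM with control vesicles and 107, 106 and 115 TPM with NID1 vesicles, again without overlap (log2 fold change 1.13, SE 0.07, adjusted p = 0.000163). HIST1H2BD rose from 13.4 ± 2.36 to 37.5 ± 0.738 TPM, and HIST1H4H from 7.06 ± 0.262 to 19.2 ± 3.12 TPM. Several histone genes are near-identical copies, so reads may be split between them. The sum over the list was 225 ± 0.96 TPM with control and 497 ± 18.1 TPM with NID1 vesicles. Cell cycle genes changed in both directions: of 56, 23 (41.1%) rose and 13 (23.2%) fell, with a median of 0.03, and 6 fell without control replicate 1 and 8 without control replicate 2 or 3. CDC25A, a phosphatase for entry into S phase, rose from 30.4 ± 0.882 to 58.3 ± 2.79 TPM. CCNE2, a cyclin of the same step, rose from 38.2 ± 1.38 to 55.5 ± 0.451 TPM, and PCNA, the replication clamp, from 701 ± 5.97 to 1069 ± 77.1 TPM. CDK6, a kinase of G1, rose from 33.6 ± 1.62 to 52.4 ± 3.27 TPM. CCNB1, the cyclin of mitosis, was at 385, 368 and 379 TPM with control vesicles and 247, 251 and 263 TPM with NID1 vesicles, with every NID1 library lower (log2 fold change -0.57, SE 0.04, adjusted p = 0.000274). MKI67, the general proliferation marker, was at 49.3 ± 0.703 TPM with control and 45.7 ± 3.31 TPM with NID1 vesicles and was not called. Whether the cells' distribution over the cycle differed was not measured.

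Proteasome subunits rose in 18 of 37 cases (48.6%) and fell in 7, with a median of 0.17 (0.05 after quantile normalization); 2 fell without control replicate 1 or 3 and 3 without control replicate 2 or NID1 replicate 3. PSMD14, a deubiquitinase of the lid, rose from 177 ± 4.44 to 261 ± 10.8 TPM, PSMA7 of the core from 489 ± 14.05 to 636 ± 12.3 TPM, and PSMC1, an ATPase of the base, fell from 300.2 ± 9.08 to 207 ± 11.6 TPM. Of 27 HOX genes, which keep the positional identity of fibroblasts, 8 rose and 1 fell, with a median of 0.15 (0.24 without NID1 replicate 2, 0.26 after quantile normalization and 0.26 after removal of the GC and length trends); 5 rose without control replicate 3 or NID1 replicate 3, none fell without control replicate 1, 2 or 3, and 14 rose after quantile normalization or removal of the GC and length trends. HOXD10 rose from 13.5 ± 0.761 to 18.96 ± 1.42 TPM and HOXB7 from 30.3 ± 1.36 to 37.9 ± 1.07 TPM.

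Many genes linked to low oxygen fell. HIF1, a dimer that is stable when oxygen is scarce, raises glycolysis, angiogenic factors and the host transcript of miR-210, and binds a core of the letters ACGTG. Of 31 hypoxia genes outside glycolysis, 15 (48.4%) fell, beside 24.6% of all genes, and 5 rose, with a median of -0.21. Over all alternatives 12 to 16 were lower (3 rose without control replicate 1). Without NID1 replicate 2, 16 were lower (median -0.15), and 16 after removal of the GC and length trends (median -0.21). The list also holds subunits and regulators of HIF such as HIF1A, ARNT, EPAS1 and VHL. It shares LOX and P4HA1 with the crosslinking enzymes. MIR210HG, the host transcript, was at 13.2, 11.99 and 13.5 TPM with control vesicles and 0.870, 0.670 and 0.930 TPM with NID1 vesicles. It is the largest fall of the rule-named genes (log2 fold change -2.93, SE 0.10, adjusted p = 5.49e-05). By position, 2 mature miRNAs of RefSeq lie within the GENCODE gene bounds of MIR210HG. Another 3 lie within those of MIR3142HG, another host transcript among the 15 largest falls. One of each, miR-210-3p and miR-146a-5p, is shown with the seed (bases 2 to 8) in capitals, since the seed picks the targets. They are on GRCh38.p14, on the minus strand of chr11:568112-568133 and the plus strand of chr5:160485372-160485393.
hsa-miR-210-3p: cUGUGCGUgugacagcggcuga
hsa-miR-146a-5p: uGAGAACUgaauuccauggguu
The seeds differ, and the libraries measured the host transcripts, not the mature miRNAs. MIR3142HG is the host of miR-146a and miR-3142, the first of which damps NF-kB signalling. It was at 9.25, 8.92 and 10.2 TPM with control vesicles and 3.04, 2.95 and 2.49 TPM with NID1 vesicles (log2 fold change -1.45, SE 0.10, adjusted p = 0.000233). The promoter window of MIR210HG (GRCh38.p14, minus strand, chr11:568408-568707) is shown because it holds the core of the hypoxia element, in capitals, 170 bases before the start.
MIR210HG: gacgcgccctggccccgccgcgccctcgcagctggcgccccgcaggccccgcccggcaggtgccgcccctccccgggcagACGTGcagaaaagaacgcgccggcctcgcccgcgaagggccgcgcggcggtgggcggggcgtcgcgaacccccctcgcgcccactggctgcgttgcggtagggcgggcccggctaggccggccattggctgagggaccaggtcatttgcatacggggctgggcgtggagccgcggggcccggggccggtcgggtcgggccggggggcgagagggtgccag
The core was in 17 of 26 list members with a window (65.4%), and in 32.5% of the tested background. Among the other lists its share varied widely, from 0 of 11 members with a window for chemokines to 8 of 9 (88.9%) for HOX genes. The hypoxia list was made of known genes of the response, so its share does not depend on the levels measured here. NDRG1, a hypoxia and stress gene, was at 58.6, 49.9 and 64.7 TPM with control vesicles and 26.3, 24.1 and 27.8 TPM with NID1 vesicles. All NID1 libraries lie lower (log2 fold change -1.11, SE 0.10, adjusted p = 0.000427). ADM, adrenomedullin, rose instead, from 58.2 ± 1.79 to 102 ± 4.99 TPM. HIF1A was at 256 ± 3.92 TPM with control and 286 ± 21.0 TPM with NID1 vesicles and was not called.

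Among 31 genes of glucose uptake and glycolysis, 11 (35.5%) fell and 4 rose, with a median of -0.11 and 8 to 13 lower over all alternatives; 8 rose after removal of the GC and length trends, with a median of -0.02. The median was -0.05 after median-ratio scaling and -0.06 without NID1 replicate 2. ALDOC, an aldolase isoform, fell from 25.1 ± 3.65 to 6.88 ± 0.604 TPM. LDHA, lactate dehydrogenase A, was at 805, 744 and 832 TPM with control vesicles and 478, 481 and 483 TPM with NID1 vesicles. The NID1 libraries are nearly the same and lower (log2 fold change -0.72, SE 0.05, adjusted p = 0.000234). PFKL, a phosphofructokinase, fell from 77.6 ± 4.39 to 39.4 ± 5.06 TPM, while GAPDH was at 4795 ± 127 TPM with control and 4429.8 ± 182 TPM with NID1 vesicles and SLC2A1, the glucose transporter GLUT1, at 128 ± 6.03 TPM with control and 128 ± 14.8 TPM with NID1 vesicles, neither called. TXNIP, which limits glucose uptake, rose from 185 ± 8.19 to 265 ± 8.43 TPM, as did the glycogen phosphorylase PYGL, from 127 ± 4.58 to 179 ± 9.71 TPM.

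Sterol genes fell: 17 of 32 cholesterol synthesis genes and SREBP targets (53.1%) were lower and 3 higher, with a median of -0.28 and 17 to 19 lower over all alternatives (5 higher after quantile normalization or median-ratio scaling). Without NID1 replicate 2, 18 were lower (median -0.25), and 17 after removal of the GC and length trends (median -0.20). DHCR7, the last enzyme of cholesterol synthesis, fell from 51.6 ± 5.34 to 22.8 ± 3.11 TPM, FDFT1, squalene synthase, from 62.4 ± 2.57 to 37.5 ± 2.09 TPM, and MSMO1 from 52.0 ± 2.25 to 31.7 ± 1.54 TPM. HMGCS1, an early enzyme of the pathway, was at 67.7 ± 1.87 TPM with control and 70.2 ± 4.27 TPM with NID1 vesicles and was not called. The sterol regulatory element pattern TCACNCCAC was in 1 of 26 list members with a window (3.85%) and in 1.48% of the tested background. The regulators SREBF1 and SREBF2 fell, SREBF2 from 45.2 ± 2.27 to 26.1 ± 2.60 TPM; both were picked out after their values were seen. Of 38 fatty acid and lipid droplet genes, 13 fell and 9 rose, with a median of -0.03 (5 rose without control replicate 1 and 14 without NID1 replicate 2). The desaturase SCD fell from 46.8 ± 3.78 to 26.8 ± 1.87 TPM and FADS2, another, from 67.5 ± 4.71 to 36.6 ± 3.19 TPM, while FASN, fatty acid synthase, was at 33.2 ± 1.64 TPM with control and 31.4 ± 6.95 TPM with NID1 vesicles and was not called.

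Transcripts of the mitochondrial genome and of nuclear respiratory chain genes moved in opposite directions. All 13 mitochondrially encoded mRNAs fell, with a median of -0.76 (12 or 13 fell under every alternative that kept them). MT-CO3, a core subunit of cytochrome oxidase, was at 5209, 5179 and 5204 TPM with control vesicles and 2966, 2959 and 2920.0 TPM with NID1 vesicles. Its groups are tight and far apart (log2 fold change -0.82, SE 0.04, adjusted p = 0.000163). MT-ND3, of complex I, fell from 7014 ± 42.1 to 3956 ± 152 TPM, and MT-CO1 from 7761 ± 96.5 to 4973 ± 208 TPM. MT-ND4L, which overlaps MT-ND4 in the genome, fell from 9881 ± 249 to 5839.6 ± 547 TPM. Together the 13 took 6.06% ± 0.11 of all TPM with control and 3.66% ± 0.13 with NID1 vesicles (SD, n = 3). Since TPM is a share of the whole, this loss alone raises the values of other genes, and without the mitochondrially encoded genes the counts were 2462 higher and 4360 lower over all genes. Of 80 nuclear subunits of the respiratory chain, 40 (50%) rose and 6 fell, with a median of 0.19 (0.11 after quantile normalization and 0.13 without NID1 replicate 2); 26 to 42 rose over all alternatives, 26 (with 10 lower) after quantile normalization, 40 without NID1 replicate 2 and 42 after removal of the GC and length trends. NDUFA10, of complex I, was at 170.4, 179 and 175 TPM with control vesicles and 238, 239 and 233 TPM with NID1 vesicles. The lowest NID1 library stands clear of the highest control (log2 fold change 0.43, SE 0.04, adjusted p = 0.000455). COX6A1, of complex IV, rose from 963 ± 18.4 to 1239 ± 47.2 TPM, and ATP5MC3, of the ATP synthase ring, from 161 ± 6.71 to 218 ± 8.13 TPM. NDUFA5 rose from 129 ± 3.62 to 186 ± 16.7 TPM, with NID1 replicate 2 the highest. The nuclear subunits summed to 1.97% ± 0.010 of TPM with control and 2.36% ± 0.19 with NID1 vesicles.

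**Figure D5:**
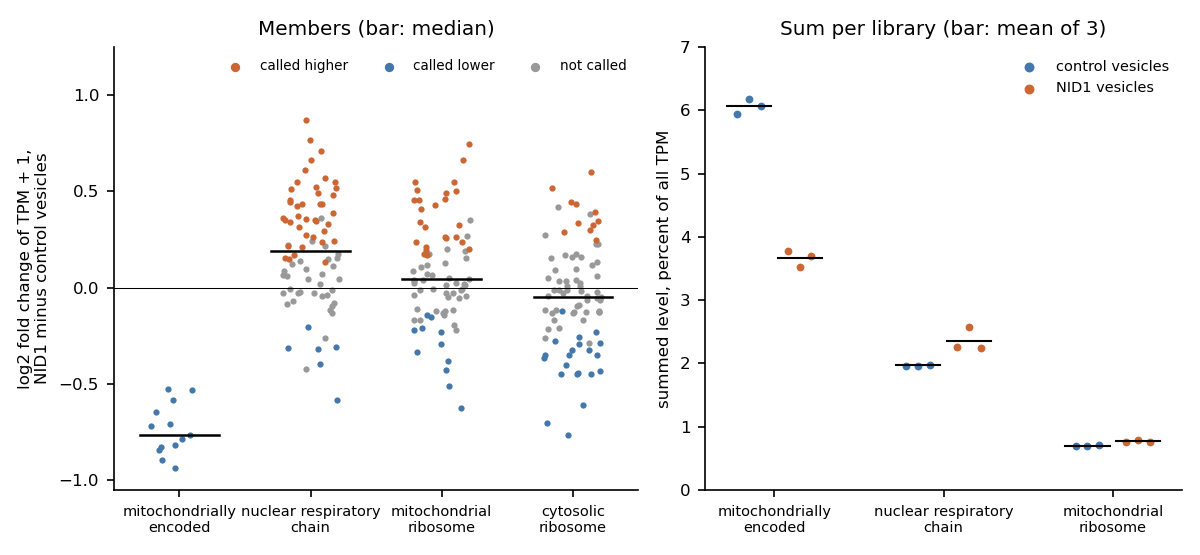
Left, the log2 fold change of TPM plus 1 (NID1 minus control) of each tested member of 4 gene lists, coloured by call, with a bar at the median. Right, the summed level of 3 of these lists per library in percent of all TPM, with a bar at the mean of 3: the mitochondrially encoded sum is lower in every NID1 library, and NID1 replicate 2 has the highest nuclear respiratory chain sum.

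Mitochondrial ribosomal proteins, which translate those 13 mRNAs, rose in 25 of 78 cases (32.1%) and fell in 11, with a median of 0.04; without control replicate 1, 16 rose and 6 fell, and 7 and 6 fell without control replicates 2 and 3. MRPS6 rose from 89.7 ± 2.52 to 151 ± 3.13 TPM and MRPL32 from 79.0 ± 2.55 to 126 ± 10.8 TPM. Of 83 proteins of the cytosolic ribosome, 11 (13.3%) rose and 21 (25.3%) fell, near the shares of all genes, with a median of -0.05. That list depends on one library: without NID1 replicate 2, 17 rose and 44 fell, 17 rose after quantile normalization, 13 fell after median-ratio scaling, and 6 rose without control replicate 1, 2 or 3. RPL4 fell from 1259 ± 61.6 to 739 ± 35.3 TPM, with all 3 NID1 libraries alike, and RPL15 fell from 1886 ± 49.4 to 1238 ± 10.4 TPM. The sum over the list was 12.7% ± 0.14 of TPM with control and 12.6% ± 1.42 with NID1 vesicles. SNHG1, a noncoding transcript whose introns hold small nucleolar RNAs, rose from 456 ± 10.6 to 808 ± 83.9 TPM.

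The machinery by which cells make and take up vesicles changed in both directions. Of 55 genes of vesicle biogenesis, secretion and uptake, 20 (36.4%) rose and 16 (29.1%) fell, with a median of -0.07. Rises came to 12 without control replicate 1 or 3 or NID1 replicate 3, and 13 without control replicate 2 or NID1 replicate 1, and 10 fell without control replicate 1. CD63, a tetraspanin that marks exosomes, was at 790.4, 841 and 772 TPM with control vesicles and 1116, 1243 and 1091 TPM with NID1 vesicles, with NID1 libraries above (log2 fold change 0.52, SE 0.06, adjusted p = 0.00105). CD9, another, was at 241, 225 and 224 TPM with control vesicles and 177, 161 and 182 TPM with NID1 vesicles, with NID1 libraries below (log2 fold change -0.41, SE 0.06, adjusted p = 0.00203). CD81, the third tetraspanin in common use as an exosome marker, fell from 196 ± 8.02 to 153 ± 20.2 TPM but lost its call without control replicate 1 or 3 (adjusted p = 0.0678 and 0.05) and with no low filter (0.0623), and its log2 fold change of -0.36 was -0.13 after removal of the GC and length trends. CD82 fell from 38.2 ± 0.673 to 28.6 ± 0.715 TPM. The other tetraspanins of the list that were tested, CD151, TSPAN4, TSPAN6 and TSPAN14, were called lower too and were picked out after their values were seen; TSPAN6 kept its call under 7 of 16 alternatives. SDCBP, the syntenin that loads exosomes, rose from 244 ± 7.40 to 351 ± 13.4 TPM. MFGE8, which bridges vesicles and integrins for uptake, fell from 358 ± 2.75 to 244 ± 22.5 TPM. Of 47 lysosomal genes, 18 (38.3%) fell and 10 rose, with a median of -0.05 (16 rose after removal of the GC and length trends). The protease CTSL fell from 375 ± 9.25 to 258 ± 14.6 TPM, while ATP6V1B2, of the acidifying pump, rose from 123 ± 1.85 to 189 ± 6.09 TPM. Of 39 autophagy genes, 13 rose and 10 fell, with a median of -0.01 (8 rose without control replicate 1 and 7 without control replicate 2). SQSTM1 rose as above and MAP1LC3B, which coats autophagosomes, from 159 ± 2.42 to 229.6 ± 14.6 TPM, while the initiating kinase ULK1 fell from 45.1 ± 1.43 to 23.1 ± 1.61 TPM, as did WIPI2 from 73.5 ± 2.25 to 36.3 ± 2.83 TPM.

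Keratins, which LX-2 cells express beside vimentin, fell in 8 of 10 cases (80.0%) and rose in 1, with a median of -0.70 and 5 to 9 lower over all alternatives. Without NID1 replicate 2, 8 were lower (median -0.69), and 8 after removal of the GC and length trends (median -0.53). KRT81, a keratin of hair, was at 22.9, 19.9 and 21.7 TPM with control vesicles and 4.34, 3.20 and 4.51 TPM with NID1 vesicles. The groups lie far apart (log2 fold change -2.17, SE 0.12, adjusted p = 0.000163). KRT34, another hair keratin, fell from 44.2 ± 2.46 to 17.2 ± 1.64 TPM, KRT80 from 17.2 ± 0.735 to 7.64 ± 0.934 TPM and KRT7, of simple epithelia, from 23.6 ± 1.89 to 13.3 ± 0.968 TPM. KRT8, which is also a marker of the colorectal epithelium, fell from 54.8 ± 2.34 to 35.4 ± 3.26 TPM, while its partner KRT18 was at 199 ± 5.43 TPM with control and 185 ± 15.1 TPM with NID1 vesicles and was not called. The rise was KRT10, from 103 ± 6.22 to 149 ± 12.8 TPM, picked out after its values were seen. The endothelial list summed to 78.7 to 85.1 TPM in the control libraries and 45.9 to 54.4 TPM in the NID1 libraries. Of its 3 tested genes all fell, TIE1 and TEK, receptors of the angiopoietin system, and ROBO4, with TIE1 going from 31.4 ± 3.21 to 17.1 ± 1.70 TPM; TIE1 and TEK were picked out after their values were seen. The defining endothelial markers CDH5, VWF and KDR were near 0.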

How the data were processed

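The authors deposited 1 table of TPM values for the 6 LX-2 libraries, 1 value per gene and library, with no counts, so depth is unknown and no counting interval is given. Poly(A) RNA was selected with oligo(dT) beads, per the labels' protocols. HISAT2 2.1.0 and Bowtie2 2.3.5 are named without a role in the submitters' processing notes, while neither the genome build nor the annotation or counting tool is given in the sources used.

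Genes at 1 TPM or more in at least 3 libraries were tested with limma 3.58.1 (R 4.3.3) and a variance trend on log2 of TPM plus a pseudocount of 1, which understates changes of low genes, with Benjamini-Hochberg adjustment over all 15802 genes and a threshold of 0.05. The code was tested on simulated data. An exact permutation test of 3 against 3 cannot go below p = 0.1 and was not used. Members were matched by symbol or ID to 48 lists. The naming rule takes NID1, and the 15 largest rises and 15 largest falls among called genes. These had a mean of at least 5 TPM in the higher group and no overlap of the 3 against 3 values. Clone and readthrough names were left out of them. Also named are list members with the smallest p or a change of at least 1 (log2), the most abundant members and textbook members. Members and lists were chosen with earlier results of these data known. Promoter windows and miRNAs are RefSeq sequences of GRCh38.p14. Windows were matched by symbol, and 10295 tested genes had a window. The miRNAs were found by their position within the GENCODE bounds of the host genes. The other libraries of the series were used for marker levels or not at all. Alternatives were other scalings, pseudocounts of 0.1 and 5, other low filters, no variance trend, a replicate block, each library left out, and removal of GC and length trends. Some results were left out and are not reported here.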

Additional observations from a re-analysis of the deposited data

How the results depend on the processing

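Over 16 alternatives the count of genes called higher (2805) and lower (3882) stayed within 1.5 times, apart from the added demand for a log2 change of at least 1, which left 88 and 192. Leaving out 1 library gave 2039 to 3481 higher and 2723 to 3651 lower genes. Scaling moved the split: 41.9% of called genes were higher as reported, 51.1% after quantile normalization, 51.2% after median-ratio scaling, 51.4% after removal of the GC and length trends, 48.8% without NID1 replicate 2 and 36.1% without the mitochondrially encoded genes. The median over all genes was -0.05 as reported, 0.01 after quantile normalization and -0.08 without the mitochondrially encoded genes. Replicates with the same number in both groups did not deviate together (r of -0.0169, 0.0269 and 0.0632 across genes) and were not taken as pairs; with a replicate block 2480 genes were higher and 3476 lower, and 3 of the 293 genes of the naming rule lost their call. Of the 254 of these that were called, 238 kept the call under every alternative and none changed sign. With no low filter (31585 genes tested) 15 lost their call. The cause of single lost calls was not tested. Fewer genes were tested after removal of the GC and length trends (15026), since the others have no matched transcript model. Medians of the YAP, chemokine, cytokine, NF-kB, NRF2, iron, ATF4, unfolded protein, death receptor, cell cycle, fatty acid, lysosome, autophagy, vesicle, small nucleolar host and cytosolic ribosome lists changed sign under at least 1 alternative, running from -0.10 to 0.09 for ATF4, and no direction is read from them. With a pseudocount of 5 the list medians shrank, to -0.40 for collagen VI and other non-fibrillar collagens, -0.25 for integrins, -0.44 for keratins, 0.09 for HOX genes and 0.43 for histones, while the counts of members called in these 5 lists stayed the same. With a pseudocount of 0.1 the keratin median was -1.09. Among genes at a mean of at least 5 TPM it was -0.38 for complement and coagulation, -0.25 for stellate surface genes and -0.17 for growth factors. With no low filter fewer members were called in several lists: 9 instead of 14 rose among immediate early genes, 4 instead of 9 among cytokines, 5 instead of 8 among iron genes, 5 instead of 11 among cytosolic ribosomal proteins, and 8 instead of 13 fell among interferon genes. With no variance trend 13 instead of 20 vesicle genes rose. With the replicate block 3 instead of 6 NF-kB genes and 3 instead of 5 matrix proteases rose.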

Other observations

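The authors list 805 transcripts that they named as new in the LX-2 table, and 630 of them passed the low filter. Of these, 72 (11.4%) were higher and 117 (18.6%) lower with NID1 vesicles, beside 17.8% and 24.6% of all genes. The largest fall of any gene tested was one of them, chosen after its values were seen: it was at 18.3, 30.6 and 22.7 TPM with control vesicles and was listed at 0 in all 3 NID1 libraries (limma adjusted p = 5.49e-05), and it was called in 15 of 15 alternatives. No coordinates or sequence for it were used here.

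Cytosolic aminoacyl tRNA synthetases, many of them ATF4 targets, changed in both directions, with 4 of 18 higher and 6 lower and a median log2 fold change of -0.11 (2 higher without control replicate 1, 2 or 3, and the median -0.04 without NID1 replicate 2). QARS, which charges glutamine, fell from 143 ± 11.5 to 77.7 ± 10.9 TPM (SD, n = 3), and YARS, which charges tyrosine, rose from 323 ± 8.42 to 407 ± 18.8 TPM.

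Of 26 noncoding hosts of small nucleolar RNAs, 6 rose and 5 fell (3 fell without control replicate 1, and 10 rose after removal of the GC and length trends), with a median of -0.02. SNHG15 rose from 38.1 ± 3.32 to 61.8 ± 2.01 TPM and SNHG18 fell from 14.6 ± 1.50 to 8.80 ± 1.28 TPM.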
